A study of Tachysurus vachellii with 6 samples.

Results

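The miR-29, miR-33 and miR-378 families were followed in small RNA of extracellular vesicles isolated from liver tissue of a freshwater catfish that the labels call Tachysurus vachellii and Pelteobagrus vachellii. Members were all rows of the authors' liver miRNA table named miR-29, miR-33 or miR-378, whatever the species prefix, letter, arm or variant suffix. They were 19 of 1088 rows and, with listings of the same sequence summed, 16 distinct sequences among 841 entries: 11 of miR-29, 4 of miR-33 and 1 of miR-378. The hypoxia group had 3 libraries from fish held for 4 h at a dissolved oxygen of 1.0 mg/L, reached by sealing the water and bubbling nitrogen. The normoxia group had 3 libraries labelled with the same 4 h, from fish not made hypoxic, for which the protocol gives a starting level of 6.8 mg/L. All fish were bought from a farm at a body length near 11.5 cm and a weight near 15 g. They had been acclimated for 2 weeks and fasted for 48 h, so that both groups were fasted. The labels do not say whether a library is 1 fish or a pool, and p-values therefore measure the spread between these libraries, which may be technical.

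In mammals miR-29 is best known for repressing collagens and other matrix genes in hepatic stellate cells, and it also acts on insulin signalling and gluconeogenesis in hepatocytes. miR-33 lies within introns of the SREBF genes of mammals, which drive sterol and fatty acid synthesis, and it represses cholesterol efflux and fatty acid oxidation. miR-378 lies within an intron of mammalian PPARGC1B, a coactivator of mitochondrial genes, and is linked to oxidative metabolism. Each hairpin can give a product from its 5′ arm (5p) and from its 3′ arm (3p), and the seed, bases 2 to 8 from the 5′ end, pairs with target mRNAs.

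The sequences are shown because they decide which entries could act on the same targets and which could exchange reads. They are written as deposited, with T for U. In the 4 sequences of the miR-29 3p arm the seed is in capitals:
ssa-miR-29b-3p, also listed as oni-miR-29a: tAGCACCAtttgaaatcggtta
dre-miR-29a_R+1: tAGCACCAtttgaaatcggttat
dre-miR-29b: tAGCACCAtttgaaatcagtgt
dre-miR-29b_L+1R-1_1ss22GT, also listed as ssa-miR-29c-3p_L+1R-1: cTAGCACCatttgaaatcagtt

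The first of these is called oni-miR-29a here. The deposited table gives this 1 sequence both an a and a b name, so the letters do not separate the genes. dre-miR-29a_R+1 is the same 22 bases with 1 more base at the 3′ end. dre-miR-29b differs from oni-miR-29a at G18A, T21G and A22T, counted from 1 at the 5′ end, and shares its seed. The last sequence starts 1 base earlier, which moves its bases 2 to 8 by 1 position. The seed of the other 3, AGCACCA, stood at bases 2 to 8 in 3 of the 874 distinct sequences of the table, so that no entry of another name shared it.

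The other 7 miR-29 sequences were assigned to the 5p arm because they hold TGGTG, the complement of bases 4 to 8 of the 3p arm. TGGTG occurred in 26 of the 874 sequences (2.97%), and it is in capitals in the 5 that the results turn on:
oni-mir-29a-3-p5: actgatttcttcTGGTGcttaga
ssa-miR-29b-3-5p_1ss12TC: accgatttcttcTGGTGttcaga
gmo-miR-29b-2-5p_R-1_2ss11GA18TA: ctggtttcacaTGGTGgattaga
gmo-miR-29b-2-5p_R-1_3ss10CG11GA18TC: ctggtttcagaTGGTGgcttaga
fru-mir-29a-2-p5: tgactgatttcttcTGGTGct

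oni-mir-29a-3-p5 and ssa-miR-29b-3-5p_1ss12TC differ at T3C, C18T and T20C, and the first of these positions lies in bases 2 to 8. The pair of gmo-miR-29b-2-5p sequences differs at C10G and A18C and agrees at bases 2 to 8. fru-mir-29a-2-p5 covers the sequence of oni-mir-29a-3-p5 with 2 more bases at the 5′ end and 4 fewer at the 3′ end.

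For miR-33 and miR-378 bases 2 to 8 are in capitals:
oni-miR-33b-5p_R-1: gTGCATTGtagttgcattgc
ssa-mir-33b-p3_1ss19AG: cAATGTTCctgcagtgcag
oha-miR-33a-3p_R+1_1ss20TC: cAATGTTTctgcagtgcagca
bta-miR-378_R-1: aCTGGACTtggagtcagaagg

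The seeds TGCATTG and CTGGACT each occurred in 1 of the 874 sequences, that of oni-miR-33b-5p_R-1 and that of bta-miR-378_R-1. No entry outside the 3 families therefore shared the seed of a family's most abundant member. The 3p sequences of miR-33 differ at T8C, within bases 2 to 8.

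Libraries held 2038301 counts in hypoxia replicate 1, 6039290 and 7234216 in the other hypoxia libraries, and 5572737 to 8497217 in normoxia. Hypoxia replicate 1 stood apart: 462 entries were detected in it against 643 to 725 in the other 5 libraries, and its log2 CPM (counts scaled to the TMM-adjusted library total) correlated with theirs at a Pearson r of 0.948 to 0.970 across 519 entries, which are not independent replicates. Among all summed values above 0 exactly 227 were 5, none was 1 or 2, and 2.25% were under 5, so that a listed 0 can stand for a few reads that were dropped before deposit. A count of 5 amounted to 2.45 CPM in hypoxia replicate 1 and to 0.588 to 0.897 CPM in the other libraries. All intervals cover only counting error or the spread of these libraries. The labels mention no molecular identifiers, so amplified copies could not be told from separate molecules, and intervals from counts alone can be too narrow.

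**Figure D1:**
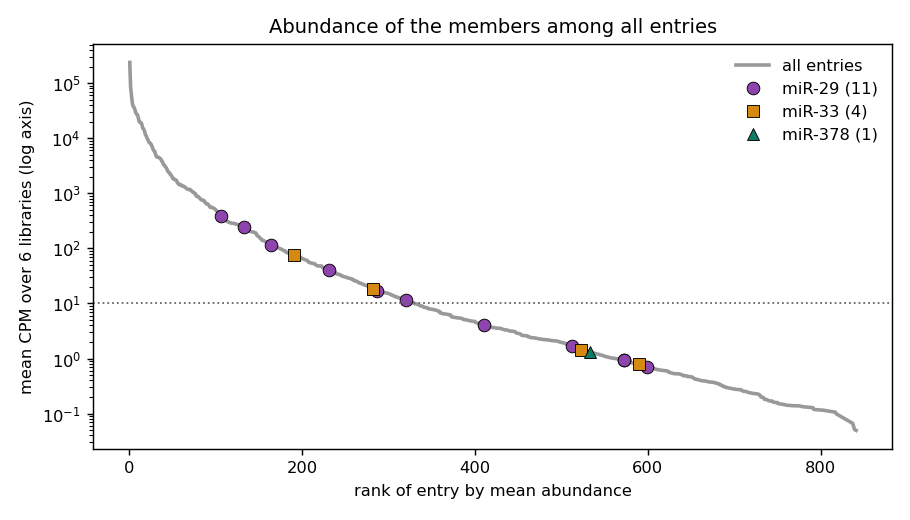
Mean CPM over 6 libraries (log axis) of all 841 entries against their rank (grey line), with the 11 miR-29, 4 miR-33 and 1 miR-378 sequences marked; the dotted line is 10 CPM. The most abundant member, oni-miR-29a, ranks 106 and 8 members lie above the line.

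The 3 families were minor components of the vesicles. Their 16 sequences took 0.108%, 0.0747% and 0.0845% of counts in hypoxia libraries 1, 2 and 3, against 0.0990%, 0.0920% and 0.0924% in normoxia. By mean abundance oni-miR-29a ranked 106 of 841, dre-miR-29b 164 and oni-miR-33b-5p_R-1 191. bta-miR-378_R-1 ranked 533. The 8 members with a mean of at least 10 CPM ran from 389 CPM for oni-miR-29a down to 11.5 CPM for gmo-miR-29b-2-5p_R-1_2ss11GA18TA. Their coefficients of variation over the 6 libraries had a median of 18.3%, against 17.0% for all 329 tested entries of that abundance.

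No member passed the test between hypoxia and normoxia. Of the 16 sequences 10 passed the filter on low counts and were tested, and 0 of the 10 had a Benjamini-Hochberg adjusted p under 0.05 (edgeR quasi-likelihood test over all 519 entries, of which 14, or 2.7%, passed; 1.54% were higher and 1.16% lower in hypoxia). The members' adjusted p ran from 0.232 to 0.989. An unadjusted p under 0.05 was reached by 2 of the 10, against 18.5% of all entries tested. That count was 5 of 12 tested without hypoxia replicate 1, against 15.3% of all entries, and 0 of 10 without normoxia replicate 1, against 13.6%. DESeq2 and limma-voom called none of the members either, beside 51 and 22 calls among all entries. With these methods 1 and 3 members had an unadjusted p under 0.05, against 19.5% and 18.9% of all entries. Of the 10, 3 had a log2 fold change above 0 and 7 below, with a median of -0.14, beside a median of -0.04 over all entries tested. With offsets that remove each library's trend on GC content and length, 6 lay above 0 and 4 below. That trend, per 10 points of GC and on the log2 scale, was 0.11, -0.06 and 0.11 in hypoxia libraries 1, 2 and 3, against -0.01, -0.08 and -0.07 in normoxia. Per base of length it was -0.005, -0.066 and -0.030 in hypoxia libraries 1, 2 and 3, against 0.079, 0.043 and -0.021 in normoxia. In 5 of the 10 the hypoxia libraries did not overlap the normoxia libraries in TMM-scaled CPM, where 25.8% of all entries tested did not. By library totals alone the groups overlapped for oni-mir-29a-3-p5 and ssa-mir-33b-p3_1ss19AG. The share of all entries was not computed for that scaling. These 5 are not independent of each other, since some are arms of the same family.

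**Figure D2:**
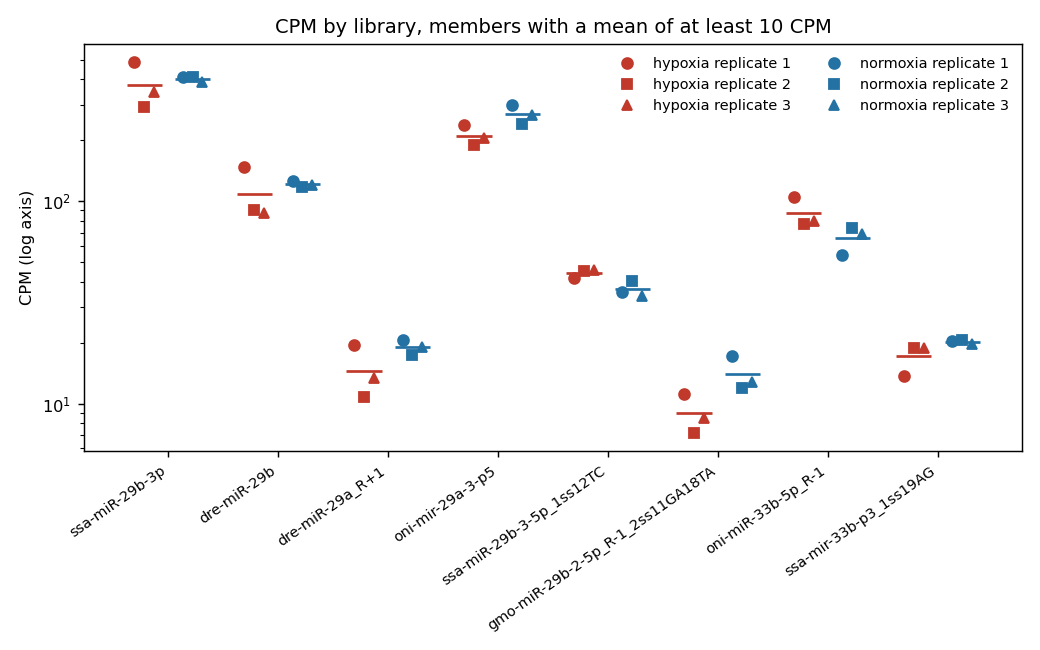
CPM (log axis) of the 8 members with a mean of at least 10 CPM, with hypoxia libraries in red to the left of normoxia libraries in blue, a symbol per replicate and a bar at the group mean. Hypoxia replicate 1 (red circle) is the highest of the 6 libraries for oni-miR-29a (labelled ssa-miR-29b-3p), dre-miR-29b and oni-miR-33b-5p_R-1 and the lowest for ssa-mir-33b-p3_1ss19AG.

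In the 3p arm of miR-29, the arm with the collagen-targeting seed, no entry passed the test between the groups. oni-miR-29a had 484, 291 and 348 CPM in hypoxia replicates 1, 2 and 3, against 412, 412 and 386 CPM in normoxia. The hypoxia libraries lay on both sides of the normoxia libraries and were more spread, at 374 ± 99.1 CPM against 403 ± 14.9 CPM (SD, n = 3 each). This gave a log2 fold change of -0.11 ± 0.18 (SE) and a 95% interval that spans a change to 0.697-fold and to 1.23-fold (edgeR, Benjamini-Hochberg adjusted p = 0.772). The sign depended on the processing: the log2 fold change was -0.28 without hypoxia replicate 1, 0.05 without hypoxia replicate 2 and 0.08 with the GC and length offsets. The GC content of the 22-nt 3p sequences is 36.4%, beside a median of 45.5% over the entries tested.

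dre-miR-29b, with the same seed, was also highest in hypoxia replicate 1. It had 147.8, 90.2 and 87.2 CPM in hypoxia replicates 1, 2 and 3, against 125, 117.1 and 121 CPM in normoxia, so that replicate 1 lay above all normoxia libraries and the other 2 below. Its log2 fold change was -0.17 ± 0.21 (95% interval -0.64 to 0.30; edgeR, Benjamini-Hochberg adjusted p = 0.713), and it was -0.40 without hypoxia replicate 1 (adjusted p = 0.253, same test) and 0.02 with the GC and length offsets. The 23-nt form dre-miR-29a_R+1 had 19.4, 10.8 and 13.4 CPM in hypoxia, against 20.6, 17.4 and 19.1 CPM in normoxia. Hypoxia replicate 1 lay within the normoxia range, while replicates 2 and 3 lay below it. The log2 fold change was -0.43 ± 0.25 (edgeR, Benjamini-Hochberg adjusted p = 0.3995) and stayed below 0 in all 17 alternatives, from -0.61 without hypoxia replicate 1 to -0.17 with the GC and length offsets. The 5′-shifted dre-miR-29b_L+1R-1_1ss22GT was scarce, with 0, 3.59 and 0.957 CPM in hypoxia replicates 1, 2 and 3, against 2.85, 2.56 and 0 CPM in normoxia. It was listed at 0 in 1 library of each group, and its log2 fold change of -0.05 had a 95% interval from -2.46 to 2.37.

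Entries of the 5p arm, usually the less stable strand of miR-29, did not all lie on 1 side. oni-mir-29a-3-p5, the most abundant, had 237, 189.9 and 205 CPM in hypoxia replicates 1, 2 and 3, against 298, 241 and 266 CPM in normoxia. In TMM-scaled CPM all hypoxia libraries lay below all normoxia libraries. By library totals alone the groups overlapped. Hypoxia replicate 1, with 488 of 2038301 counts, then lay above normoxia replicate 2, with 1413 of 6003250. The log2 fold change was -0.35 ± 0.15 with an unadjusted p of 0.0419, which was lost on adjustment (edgeR, Benjamini-Hochberg adjusted p = 0.247). It was -0.39 without hypoxia replicate 1 and -0.14 with the GC and length offsets.

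ssa-miR-29b-3-5p_1ss12TC, which differs from it at 3 positions, lay on the other side. It had 41.8, 45.3 and 45.9 CPM in hypoxia replicates 1, 2 and 3, against 35.7, 40.1 and 34.2 CPM in normoxia. Here all hypoxia libraries lay above all normoxia libraries, although hypoxia replicate 1, at 86 counts, and normoxia replicate 2, at 235 counts, were close in CPM. The log2 fold change of 0.28 ± 0.17 missed the threshold (edgeR, Benjamini-Hochberg adjusted p = 0.404), was 0.37 without hypoxia replicate 1, and was 0.44 with the GC and length offsets (adjusted p = 0.182, same test).

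The pair of gmo-miR-29b-2-5p entries was rarer. gmo-miR-29b-2-5p_R-1_2ss11GA18TA had 11.2, 7.19 and 8.45 CPM in hypoxia replicates 1, 2 and 3, against 17.2, 11.95 and 12.7 CPM in normoxia. The groups did not overlap, although hypoxia replicate 1, at only 23 counts, was close to normoxia replicate 2, at 70 counts. The log2 fold change of this entry was -0.69 ± 0.28, with the lowest unadjusted p of all members at 0.0339 (edgeR, Benjamini-Hochberg adjusted p = 0.232). Over the 17 alternatives it lay between -0.81 and -0.45, and the adjusted p between 0.123 and 0.601. gmo-miR-29b-2-5p_R-1_3ss10CG11GA18TC had 5.83, 3.32 and 3.67 CPM in hypoxia, against 4.40, 2.56 and 4.18 CPM in normoxia. It is given as the partner of the first, outside the abundance limit of 10 CPM; its groups overlapped and its log2 fold change was 0.13 ± 0.45 (edgeR, Benjamini-Hochberg adjusted p = 0.909).

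**Figure D3:**
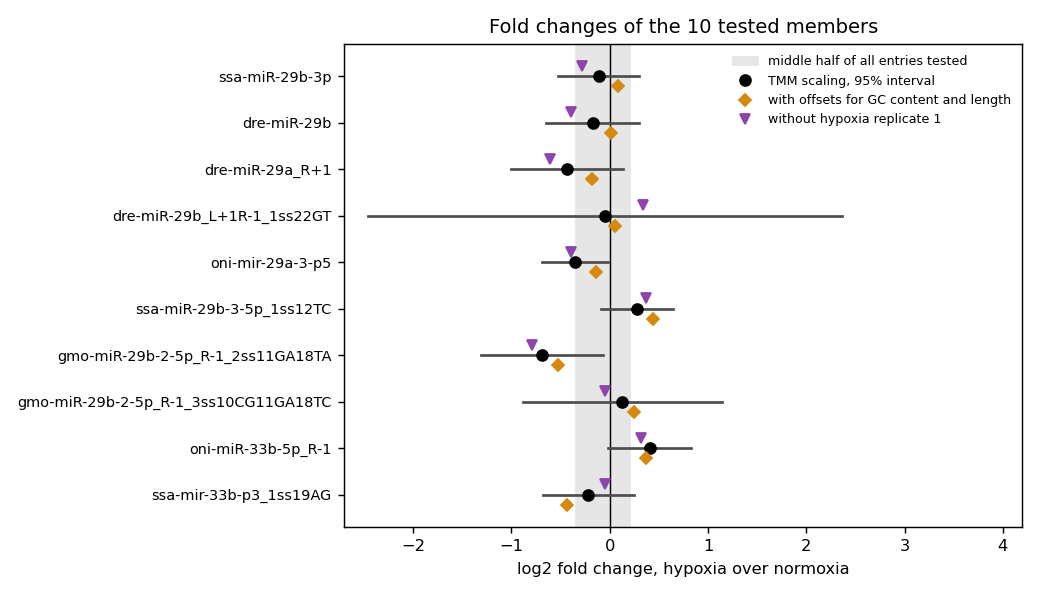
Log2 fold change of hypoxia over normoxia (horizontal axis) for the 10 tested members, with the TMM-scaled value and its 95% interval (black), the value with the GC and length offsets (orange diamonds) and the value without hypoxia replicate 1 (purple triangles); the grey band is the range between the quartiles of all 519 entries, -0.34 to 0.21. ssa-miR-29b-3p is oni-miR-29a, and the intervals of oni-mir-29a-3-p5 and gmo-miR-29b-2-5p_R-1_2ss11GA18TA alone lie below 0, before any adjustment for 519 tests.

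Summed over its 4 sequences the miR-29 3p arm had 651, 396 and 449 CPM in hypoxia replicates 1, 2 and 3, against 560.1, 549 and 526 CPM in normoxia, and the groups overlapped. Hypoxia replicates 2 and 3 lay below all normoxia libraries and replicate 1 above them. The log2 ratio of the group means of that sum was -0.13, but -0.32 without hypoxia replicate 1 and 0.028 without hypoxia replicate 2. The 7 sequences of the 5p arm summed to 298, 247 and 265 CPM in hypoxia, against 359, 299 and 319.8 CPM in normoxia. In TMM-scaled CPM the hypoxia sums of the 5p arm all lay below the normoxia sums, and oni-mir-29a-3-p5 made up most of each sum. Hypoxia replicate 1 and normoxia replicate 2 differed by less than 1 CPM, an order that reversed by library totals alone.

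Ratios taken within a library do not depend on the scaling between libraries. These ratios and shares were chosen with their values seen, so their p-values are descriptions only. The 22-nt oni-miR-29a over oni-mir-29a-3-p5 was 2.04, 1.53 and 1.69 in hypoxia libraries 1, 2 and 3, against 1.38, 1.71 and 1.45 in normoxia. No hairpin sequences were available to pair the arms, and the 3p sequence also carries a b name. The ratio is therefore one of 2 entries and may not be that of 1 hairpin. The groups overlapped (exact two-sided permutation p = 0.3). Of these entries oni-miR-29a was the more abundant in all 6 libraries, which rests on summing its 2 listings. With the listed value taken once, an alternative chosen after the data were seen, the ratio was 1.02, 0.767 and 0.846 in hypoxia, against 0.690, 0.854 and 0.726 in normoxia, above 1 in 1 of 6 libraries. Of the 16 values above 0 that the table lists for the 3 members with 2 listings each, 6 are not whole, while all 16 sums are whole, to a tolerance of 1e-06. The ratio of oni-miR-29a to dre-miR-29b was 3.28, 3.23 and 3.99 in hypoxia, against 3.29, 3.52 and 3.20 in normoxia (exact two-sided permutation p = 0.7). All miR-29 3p counts over all miR-29 5p counts gave 1.83 ± 0.31 in hypoxia and 1.68 ± 0.14 in normoxia (SD, n = 3 each; exact two-sided permutation p = 0.6).

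For 2 of the 6 ratios computed the groups did not overlap. The ratio of ssa-miR-29b-3-5p_1ss12TC to oni-mir-29a-3-p5 was 0.176, 0.239 and 0.224 in hypoxia libraries 1, 2 and 3, against 0.1196, 0.166 and 0.1285 in normoxia. Since its entries lay on opposite sides of normoxia without overlap in TMM-scaled CPM, the ratio had to separate the groups. It is given as a description with no test. The 23-nt form dre-miR-29a_R+1 made up 3.86%, 3.57% and 3.71% of miR-29a 3p counts in hypoxia libraries 1, 2 and 3, against 4.76%, 4.06% and 4.71% in normoxia, and every hypoxia library lay below every normoxia library. The exact two-sided permutation p was 0.1, the smallest that 3 against 3 allows, with a Benjamini-Hochberg adjusted p of 0.5 over the 5 ratios and shares tested. Since the share was chosen with its values seen, this p is a description only. By library the share rested on 40 of 1036, 78 of 2187 and 84 of 2264 counts in hypoxia, against 173 of 3636, 102 of 2515 and 105 of 2229 counts in normoxia. The 95% Wilson intervals were 2.85% to 5.21%, 2.87% to 4.43% and 3.01% to 4.57% in hypoxia, against 4.11% to 5.50%, 3.35% to 4.90% and 3.91% to 5.67% in normoxia. The libraries also differed in their trend on length, given above, whose part in this share was not tested.

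**Figure D4:**
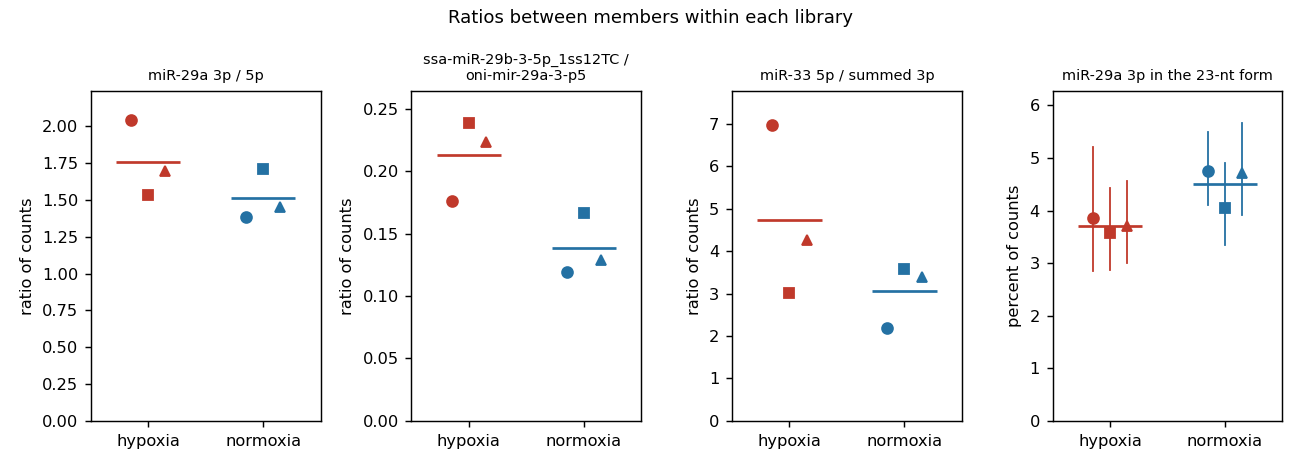
Ratios and shares of counts within each library, with hypoxia (red, left) and normoxia (blue, right), a symbol per replicate (circle 1, square 2, triangle 3) and a bar at the group mean; vertical lines in the last panel are 95% Wilson intervals. The groups separate in the second panel (0.176 to 0.239 in hypoxia, 0.1196 to 0.166 in normoxia) and in the last panel, where the intervals overlap.

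Of miR-33 the 5p strand carries the seed known from repression of cholesterol efflux in mammals. oni-miR-33b-5p_R-1 had 105, 77.5 and 80.1 CPM in hypoxia replicates 1, 2 and 3, against 54.4, 74.1 and 68.5 CPM in normoxia. All hypoxia libraries lay above all normoxia libraries, although hypoxia replicate 2 and normoxia replicate 2 were close. The means were 87.5 ± 15.2 CPM and 65.7 ± 10.1 CPM (SD, n = 3 each), a log2 fold change of 0.41 ± 0.19 with a 95% interval of -0.01 to 0.83, which misses the threshold (edgeR, Benjamini-Hochberg adjusted p = 0.293). Over the 17 alternatives the log2 fold change lay between 0.31, without hypoxia replicate 1, and 0.50, without hypoxia replicate 2, and the adjusted p between 0.147 and 0.519.

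ssa-mir-33b-p3_1ss19AG, the main 3p product, had 13.6, 18.9 and 18.8 CPM in hypoxia replicates 1, 2 and 3, against 20.3, 20.7 and 19.6 CPM in normoxia. Every hypoxia library lay below every normoxia library in TMM-scaled CPM, by a wide margin in replicate 1 only. By library totals alone the groups overlapped. Hypoxia replicate 3, with 118 of 6039290 counts, then lay just above normoxia replicate 3, with 108 of 5572737. The log2 fold change was -0.22 ± 0.21 (edgeR, Benjamini-Hochberg adjusted p = 0.625), -0.05 without hypoxia replicate 1 and -0.44 with the GC and length offsets. Its values are uncertain in hypoxia replicate 2 and normoxia replicate 1, where it was deposited at 136.5 and 170.5 counts and oha-miR-33a-3p_R+1_1ss20TC at 25.5 and 26.5. Those 4 are the only values of the members whose summed listings are not whole, to a tolerance of 1e-06, out of 79 above 0. Their counts were therefore also summed over the arm. The summed miR-33 3p arm had 15.1, 25.7 and 18.8 CPM in hypoxia, against 24.8, 20.7 and 20.2 CPM in normoxia, and with the sum the groups overlapped. The log2 ratio of the group means of that sum was -0.14, but 0.068 without hypoxia replicate 1 and 0.0061 without normoxia replicate 1. The ratio of miR-33 5p to the summed 3p arm was 6.97, 3.02 and 4.25 in hypoxia, against 2.19, 3.59 and 3.40 in normoxia (exact two-sided permutation p = 0.3, Benjamini-Hochberg adjusted p = 0.5 over 5 ratios and shares). The 5p arm was the more abundant in all 6 libraries, and hypoxia replicate 1 had the widest gap.

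miR-378 was near the limit of the table. Its only sequence, bta-miR-378_R-1, had 8, 0 and 7 counts in hypoxia replicates 1, 2 and 3, against 15, 0 and 6 counts in normoxia. It was listed at 0 in 1 library of each group, both of them deeper than hypoxia replicate 1. In CPM the values were 3.89, 0 and 1.12 in hypoxia, against 1.78, 0 and 1.09 in normoxia. The entry did not pass the filter and was not tested in the main fit, and no difference can be read from counts this low. With no filter on low counts all 16 members were tested in edgeR and 0 were called. Of the 16, 3 had an unadjusted p under 0.05, against 14.4% of all entries.

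The other 5 members untested in the main fit were 3 miR-29 5p and 2 miR-33 3p sequences. Each of them was listed at 0 in at least 2 libraries, and none exceeded 3.52 CPM. All but 1 were listed above 0 in at least 1 library of each group. fru-mir-29a-2-p5, the copy of oni-mir-29a-3-p5 that starts 2 bases earlier, was listed at 0 in all hypoxia libraries, against 19, 12 and 7 counts (2.26, 2.05 and 1.27 CPM) in normoxia. The lowest of these is close to the smallest values the table lists, no fold is given, and the sequence is named after its values were seen. bta-miR-29d-5p_L-1R+1_1ss13CT had 5, 0 and 5 counts in hypoxia, against 6, 0 and 9 in normoxia, and ipu-miR-29b_1ss11GA had 0, 12 and 5, against 6, 6 and 0. ami-miR-33-3p_R+1_1ss20TC had 24 counts in hypoxia replicate 2 and 12 in normoxia replicate 1 and was listed at 0 elsewhere.

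Other families linked to lipid and glucose metabolism were read from the same fit. The list held miR-27, miR-103, miR-107, miR-122, miR-143, miR-130, miR-148, miR-26, miR-335, miR-370, miR-223, miR-96, miR-185, miR-34 and miR-375, of which miR-335 and miR-370 had no entry. Of its 45 tested entries 0 rose, 2 fell and 43 did not pass. The 4.44% called stands beside 2.7% over all entries tested. Both calls were of miR-26 entries, which may not be independent of each other. The list was chosen with earlier results of these data known, so this comparison is a description only. The median log2 fold change was -0.12, beside -0.04 over all. The entries that fell were gmo-miR-26a-5p, of a family that acts on insulin signalling in mouse liver, with means of 36096 ± 3602 CPM under hypoxia and 49428 ± 3519 CPM under normoxia, and gmo-miR-26b-5p_R+1_1ss22TA, with 28.7 ± 10.98 CPM under hypoxia and 67.4 ± 8.34 CPM under normoxia (SD, n = 3 each; both edgeR, Benjamini-Hochberg adjusted p = 0.0494). Both calls were lost with upper-quartile factors, with total counts only, with the GC and length offsets, and without any single library other than hypoxia replicate 2.

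Markers of the cells that could supply the vesicles were summed from family lists, which were chosen with earlier results of these data known. The part of these cells in the values of the 3 families was not tested. A lower level can come from fewer vesicles of a cell type or from less miRNA per vesicle, and these cannot be told apart. Hepatocyte families (miR-122, miR-192, miR-194, miR-101, miR-148) summed to 289514 to 348942 CPM in hypoxia and to 338182 to 351630 CPM in normoxia. Of their 21 tested entries 0 passed. Their log2 fold changes were above 0 in 4 and below in 17, with a median of -0.11 beside -0.04 over all entries tested. The liver miRNA tni-miR-122_R-1 was the most abundant entry of the table. Stellate cell, fibroblast and smooth muscle families (miR-199, miR-214, miR-143, miR-145), from the cells in which mammalian miR-29 represses collagens, summed to 83666 to 85793 CPM in hypoxia and 82040 to 86879 CPM in normoxia, and 0 of 14 passed. Of the 14, 7 had a log2 fold change above 0 and 7 below. Erythrocyte families (miR-451, miR-144, miR-486) summed to 7201 to 9172 CPM in hypoxia and 4842 to 5916 CPM in normoxia, with 2 of 7 higher in hypoxia past the threshold, beside 1.54% of all entries. Both were at a Benjamini-Hochberg adjusted p of 0.0494 (edgeR), and neither was called without hypoxia replicate 1 or without any single normoxia library. Of the 7, 5 had a log2 fold change above 0 and 2 below. The lower ones included bta-miR-486, with means of 10.4 CPM in hypoxia and 21.2 CPM in normoxia (edgeR, Benjamini-Hochberg adjusted p = 0.152). Endothelial miR-126 summed to 15765 to 17730 CPM in hypoxia and 11827 to 13514 CPM in normoxia, with 0 of 4 passing. Of these, 3 had a log2 fold change above 0 and 1 below. Biliary and other epithelial families (miR-200, miR-141, miR-429) summed to 2322 to 2778 CPM in hypoxia and 2800 to 3170 CPM in normoxia, with 0 of 10 passing and no entry for miR-141. Their log2 fold changes were above 0 in 3 and below in 7. Pancreas families (miR-216, miR-217, miR-375) summed to 1121 to 1398 CPM in hypoxia and 1399 to 1652 CPM in normoxia, with 0 of 4 passing. They did not all go 1 way, with 1 log2 fold change above 0, that of dre-miR-216a, and 3 below. Leukocyte (miR-142, miR-150, miR-155, miR-223) and muscle (miR-1, miR-133, miR-206, miR-499) families overlapped between the groups, with 0 of 6 passing in each list. Log2 fold changes were above 0 in 1 and below in 5 of the leukocyte entries, and above in 5 and below in 1 of the muscle entries.

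The entries outside these families with the most similar pattern over the 6 libraries were found by the Pearson correlation of log2 CPM with the most abundant member of each family, among 170 entries of at least 100 CPM. For oni-miR-29a they were dre-miR-92a-3p_R+2 (r = 0.88), dre-miR-19c-3p_R-1_2ss9TC22CG (0.85) and ipu-mir-130c-1-p3 (0.85). For oni-miR-33b-5p_R-1 they were dre-miR-454b_R+1 (0.89), bta-miR-11987_L-1R-2_1ss8TA (0.86) and ipu-miR-200c_R-1 (0.86). For bta-miR-378_R-1, whose values rest on 4 libraries, they were dre-miR-92a-3p (0.88), dre-miR-22a-3p (0.81) and PC-5p-5000_5140 (0.80). These are the highest of 170 values over 6 points that include the shallow hypoxia replicate 1, and they are descriptions with no test.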

How the data were processed

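Small RNA from liver vesicles of the catfish was ligated, amplified and read on a NovaSeq X Plus, per the labels' protocols. Aligner, miRNA caller and build: not given in the sources used here. Per library and listed miRNA, the authors deposited estimated counts, unscaled. Listings of 1 sequence carry equal values and were summed. Rows of 1 precursor with equal values in all libraries were joined, which touched no member, and sums were rounded for the fit. Entries were filtered with filterByExpr (10 counts at the median depth in 3 libraries), scaled by TMM and fitted in edgeR 4.0.16 (R 4.3.3) by quasi-likelihood (groups only, Benjamini-Hochberg over all entries tested, threshold 0.05). CPM is the count scaled to the TMM-adjusted library total. The SE is the log2 fold change over the square root of F, and 95% intervals use its t quantile. DESeq2 1.42.0, limma 3.58.1 and the other 15 alternatives are reported under the dependence on processing. Shares have Wilson intervals, and ratios have exact permutation tests with scipy 1.17.1. Fits were tested on simulated data with known changes. At an adjusted p under 0.05 the edgeR fit recovered 13 of 66 changes (19.7%) of log2 size 0.5. It recovered 45 of 65 of size 1 and 61 of 64 of size 2, and called 3 of 315 unchanged entries. The simulation held far more changed entries than the 14 called in the data and pooled all abundances, so recovery in these data may be lower. A member that was not called can therefore still differ by a log2 of 0.5, and a scarce one by more. The 95% interval of dre-miR-29b_L+1R-1_1ss22GT, for example, ran from -2.46 to 2.37.

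Named were tested members with a mean of at least 10 CPM, and the others by range, as extremes or as untested; gmo-miR-29b-2-5p_R-1_3ss10CG11GA18TC, fru-mir-29a-2-p5 and the ratios were chosen with values seen. The families and lists were chosen with earlier results of these data known. Several list families also serve as cell markers (miR-122, miR-148, miR-143, miR-223 and miR-375). No library was left out of the main results.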

Additional observations from a re-analysis of the deposited data

How the results depend on the processing

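No member was called in any of the 17 alternatives. Against 14 entries called among all tested, there were 5 with total counts only, 59 with no filter on low counts, 51 with DESeq2, 22 with limma-voom, 3 with every sequence kept apart, 3 with offsets for GC content and length, 7 with the replicate block, and 0 to 52 with 1 library left out. Leaving out replicate 1, 2 or 3 of hypoxia gave 1, 52 or 2 calls, and leaving out replicate 1, 2 or 3 of normoxia gave 1, 0 or 5. Of the other metabolic families, 2 entries were called in the main result, 0 with upper-quartile factors, total counts only, listed values taken once, every sequence kept apart or offsets for GC content and length, 4 with no filter on low counts, 6 with DESeq2, and 0 to 5 with 1 library left out, where 5 were called without hypoxia replicate 2 and 0 without any other library. The cause was not tested. The labels state no pairing by replicate number. Deviations of same-numbered libraries from their group means had a Pearson r of -0.13, -0.06 and -0.05 across entries, and those of differently numbered libraries -0.06 to 0.12. With 3 libraries in each group the deviations constrain each other, so these values cannot exclude a pairing. With the block 0 members were called.

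Among log2 fold changes of members, 14 of 169 values changed sign, none of them of a called entry. That of oni-miR-29a was 0.085 and that of dre-miR-29b 0.017 with offsets for GC content and length, and oni-miR-29a ranged from -0.28 to 0.054 with 1 library left out. The scarce dre-miR-29b_L+1R-1_1ss22GT was at 0.0021 with upper-quartile factors, 0.38 with limma-voom, 0.055 with the offsets, 0.12 with the replicate block and -1.48 to 0.47 with 1 library left out. gmo-miR-29b-2-5p_R-1_3ss10CG11GA18TC was at -0.053 with limma-voom and -0.088 to 0.33 with 1 library left out. Of the family and arm sums, only the log2 ratio of means of miR-378 moved by more than the spread between libraries, at 0.80 with all libraries and -0.70 without hypoxia replicate 1, and its range with 1 library left out was -0.70 to 1.66. With the listed value taken once, the mean over 6 libraries of the ratio of oni-miR-29a to oni-mir-29a-3-p5 was 0.817 in place of 1.63. That of the summed miR-29 arms was 0.904 in place of 1.75, and that of the 23-nt share 7.89% in place of 4.11%. The 3 other ratios could not move, since this setting scales both of their terms or neither. It scales oni-miR-29a by the same factor in every library and so cannot reorder the 23-nt shares. That these shares did not overlap in either setting is therefore no added evidence. A listed 0 can hide up to a few counts, which limits the scarce members, tested or not.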
